A study of Rattus norvegicus with 7 samples.

Results

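The mitochondrial ribosomal protein genes were taken as every gene in the table whose symbol starts with Mrpl or Mrps followed by a number. They numbered 71 of 14702 genes, 42 named for the large subunit (Mrpl) and 29 named for the small subunit (Mrps), and no symbol was repeated. The RNA came from the thyroarytenoid muscle, the muscle inside the vocal fold. All rats were Long Evans females, 8 months old. The groups were 3 rats with the genotype Pink1-/- and 4 wild-type (WT) rats. No other allele or treatment is named in the labels, each library has its own number in its title, and the knockout is not described as limited to a cell type. The values are those of 1 comparison fitted by the authors, so the value in each rat, the spread between rats and the depth of each library cannot be given here. Pink1 itself had an implied 8.94 CPM in Pink1-/- and 269 CPM in WT muscle, and its log2 fold change was -4.91 in the authors' deposited table.

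Mitochondria keep their own ribosome, which translates the few proteins encoded by mitochondrial DNA, all of them subunits of the respiratory chain and ATP synthase. Its RNA is encoded in the mitochondrion, whereas its proteins are encoded in the nucleus, made in the cytosol and imported. Some of these proteins have relatives in bacterial ribosomes and others are specific to mitochondria. Pink1 is a kinase that accumulates on damaged mitochondria and marks them for removal by mitophagy. Skeletal muscle is rich in mitochondria, and defects of several mitoribosomal proteins are known in people with cardiomyopathy or early-onset disease of energy metabolism.

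Mitochondrial ribosomal protein transcripts lay slightly higher in Pink1-/- than in WT muscle across nearly the whole set, although few single genes passed the test. Of the 71 genes, 70 had a log2 fold change above 0 in the authors' deposited table, whereas 7051 of all 14702 genes (48.0%) did. The median was 0.47 on the log2 scale, or 1.38-fold, against a median of -0.02 over all genes. Quartiles of the members were 0.37 and 0.58, and 63 of the 71 lay between 0.25 and 0.75. At an adjusted p under 0.05, 3 members rose, Mrpl12, Mrpl3 and Mrpl37, and none fell, according to the authors' deposited table. That is 4.23% of the members called higher, against a background of 1.37% of all genes called higher, 1.68% called lower and 3.05% called either way. At an adjusted p under 0.1 there were 5 members, against 5.26% of all genes. An unadjusted p under 0.05 was reached by 36 members (50.7%), all of them higher, against 9.04% of all genes higher at that level. Summed over the 71 genes, the implied expression was 2224 CPM in Pink1-/- and 1574 CPM in WT muscle. CPM are counts scaled to the size of a library, and implied values were computed from the deposited mean and fold change under equal library sizes. More cells of a type and more RNA per cell cannot be told apart in such bulk samples.

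**Figure D1:**
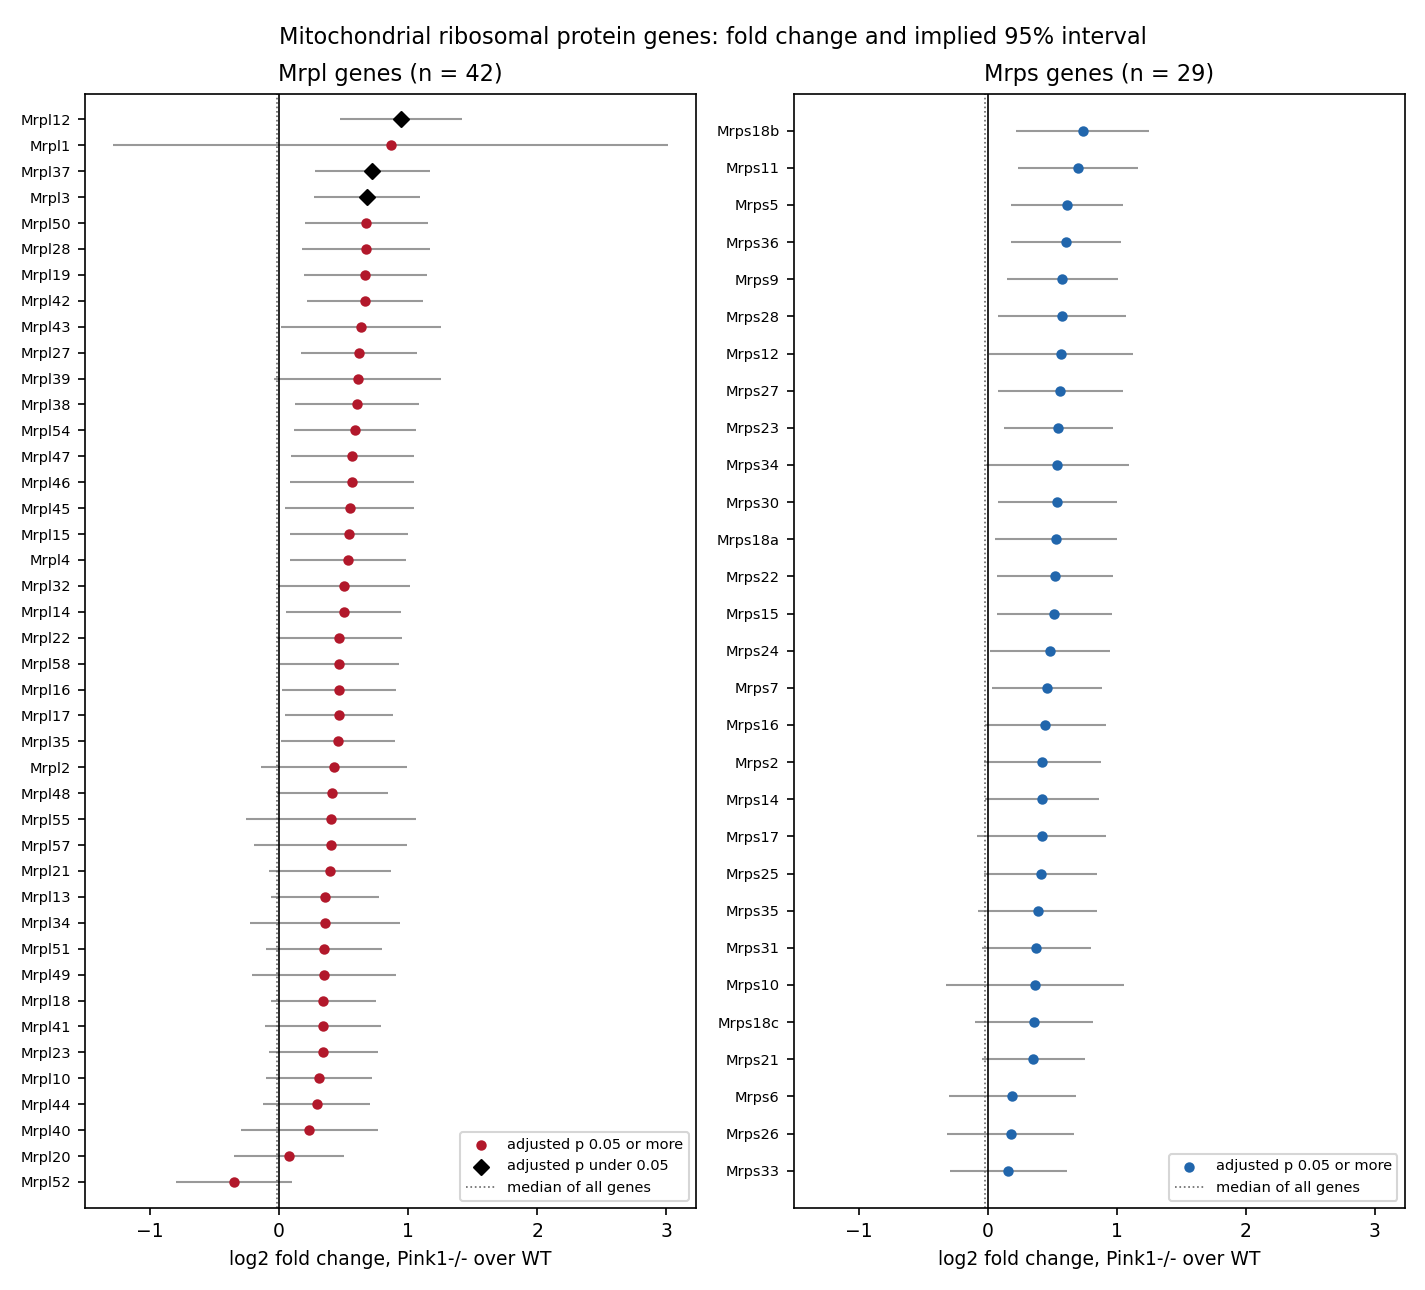
Log2 fold change of Pink1-/- over WT for each mitochondrial ribosomal protein gene (points), with implied 95% intervals (lines); black diamonds mark an adjusted p under 0.05. Points lie to the right of 0 for 41 of 42 Mrpl genes and 29 of 29 Mrps genes, and Mrpl52 is the exception at -0.35.

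The calls depend on how the libraries were scaled. Summed over all genes, implied CPM exceeded WT in Pink1-/- muscle by 0.21 (log2), and scaling that makes these sums equal lowers every fold change by that amount. The median of all genes then becomes -0.23 and that of the members 0.26, with 66 of 71 members above 0. Test values under that scaling were approximated from the shifted fold change and its implied standard error, and no model was refitted. No member was called in this way, against a background of 0.429% of all genes called higher and 3.86% called lower. At an unadjusted p under 0.05, 6 members were higher and 1, Mrpl52, was lower, against 3.05% of all genes higher and 19.3% lower. With likelihood ratios divided by their excess over a chi-square median, no member was called, against 0.0952% of all genes, and 10 had an unadjusted p under 0.05, against 5.69% of all genes.

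Mrpl12, the stalk protein through which translation factors reach the large subunit and which has also been described as a partner of mitochondrial RNA polymerase, had the largest fold change of the set. Its implied expression was 65.3 CPM in Pink1-/- and 34.0 CPM in WT muscle. Mrpl12 had a log2 fold change of 0.94 in the authors' deposited table, with an implied standard error (SE) of 0.24 and an adjusted p of 0.00778. That is 1.92-fold, with an implied 95% interval from 1.39-fold to 2.66-fold. Under scaling to equal summed CPM its adjusted p became 0.0512. Mrpl10, the protein that anchors the stalk to the particle, stood at 0.31 in the authors' deposited table (adjusted p = 0.472). The implied 95% intervals of the stalk protein and its anchor overlapped.

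Mrpl3 lies in the core of the large subunit near the peptidyl transferase centre, and its loss of function causes cardiomyopathy in people. Its implied expression was 66.1 CPM in Pink1-/- and 41.3 CPM in WT muscle, and its log2 fold change of 0.68 in the authors' deposited table had an adjusted p of 0.0425. Mrpl37, a protein of the large subunit that is specific to mitochondria, was at an implied 56.4 CPM in Pink1-/- and 34.2 CPM in WT muscle. Mrpl37 had a log2 fold change of 0.72 in the authors' deposited table (adjusted p = 0.0496), the value closest to the threshold from below. The nearest on the other side were Mrps11 (adjusted p = 0.0778) and Mrpl42 (adjusted p = 0.0835) in the authors' deposited table. The call of Mrpl37 also ended when genes under a mean log2 CPM of 1 were left out, where its adjusted p was 0.0561 against a background of 1.32% called higher. A pseudogene named after Mrpl37 is annotated in RefSeq, and how reads of the copies were assigned is unknown, so this value is uncertain. Such a pseudogene was annotated for 22 of the 71 members, whose median was 0.52, against 0.47 for the other 49.

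Other large-subunit proteins with bacterial relatives covered a narrow range. Around the site of peptide bond formation, Mrpl2 stood at 0.42, Mrpl16 at 0.46 and Mrpl27 at 0.62 in the authors' deposited table (adjusted p = 0.473, 0.263 and 0.116). Proteins that line the peptide tunnel or ring its exit gave similar values. In the authors' deposited table these were 0.53 for Mrpl4, 0.46 for Mrpl17, 0.47 for Mrpl22, 0.34 for Mrpl23 and 0.57 for Mrpl47. Mrpl19 and Mrpl28, both at 0.67 in the authors' deposited table, followed Mrpl12, Mrpl1 and Mrpl3 among the conserved genes. Their adjusted p-values were 0.102 and 0.124. Mrpl32, which is cut by the mitochondrial m-AAA protease before it joins the particle, stood at 0.51, and Mrpl14, which meets the assembly factor Malsu1, stood at 0.50 in the authors' deposited table. Mrpl18 (0.34), Mrpl13 (0.36), Mrpl21 (0.39), Mrpl34 (0.35), Mrpl35 (0.46), Mrpl15 (0.54) and Mrpl55 (0.40) filled the same range in the authors' deposited table. None of these genes passed the test. The reads behind them differed widely, with mean CPM between 5.57 for Mrpl55 and 79.2 for Mrpl15 in the authors' deposited table.

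Mrpl20 and Mrpl1 stood apart for different reasons. Mrpl20, whose bacterial relative binds ribosomal RNA early in assembly, was at an implied 21.7 CPM in Pink1-/- and 20.6 CPM in WT muscle. Its log2 fold change was 0.08 in the authors' deposited table, and -0.13 under scaling to equal summed CPM, so its direction turned. Mrpl1, of the mobile stalk at the exit site for transfer RNA, had a log2 fold change of 0.86 in the authors' deposited table (adjusted p = 0.751). The mean was only 0.956 CPM for Mrpl1, and its implied SE was 1.10 against a median of 0.24 over the 71 genes. A separate gene described as L1-like, LOC100359687, carried more of the reads, with a mean of 11.9 CPM. LOC100359687 also stood at 0.86 in the authors' deposited table (adjusted p = 0.0597), with an implied SE of 0.28. Reads could be split between genes of such like description, so neither value is certain on its own.

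Among large-subunit genes, the mitochondria-specific ones held both the highest value after Mrpl12 and Mrpl1, that of Mrpl37, and the lowest, that of Mrpl52. Mrpl50 (0.68), Mrpl42 (0.67), Mrpl43 (0.63), Mrpl39 (0.61), Mrpl38 (0.60) and Mrpl54 (0.59) followed Mrpl37 in the authors' deposited table. Mrpl39 resembles threonyl-tRNA synthetase and Mrpl38 belongs to a family of phosphatidylethanolamine-binding proteins, folds that bacterial ribosomes do not carry. Mrpl45, which holds the particle on the inner membrane beside the tunnel exit, was at an implied 69.2 CPM in Pink1-/- and 47.3 CPM in WT muscle. Its log2 fold change was 0.55 in the authors' deposited table (adjusted p = 0.238). Among proteins of the central protuberance, Mrpl46 stood at 0.57, Mrpl48 at 0.41 and Mrpl40 at 0.23 in the authors' deposited table. Mrpl58, a peptidyl-tRNA hydrolase built into the particle, stood at 0.47, and Mrpl44, which resembles a ribonuclease and is mutated in inherited cardiomyopathy, at 0.29 in the authors' deposited table. Mrpl57 (0.40), Mrpl51 (0.35), Mrpl49 (0.35) and Mrpl41 (0.34) completed the group in the authors' deposited table, and none of these passed the test.

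Mrpl52 was the only member with a fold change below 0. Its implied expression was 13.1 CPM in Pink1-/- and 16.7 CPM in WT muscle. Mrpl52 had a log2 fold change of -0.35 in the authors' deposited table, with an implied SE of 0.23 and an adjusted p of 0.457. Its implied 95% interval ran from -0.80 to 0.10, so its own difference from 0 was not detectable. Under scaling to equal summed CPM Mrpl52 stood at -0.56, with an adjusted p of 0.129. The interval did not reach the members' median of 0.47, and Mrpl12, whose interval lay above it, was the only other gene of which this was so. The other 69 intervals held the median. Among 71 intervals at 95% a few are likely to miss a shared value, and departure from the median was not tested.

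No gene named for the small subunit passed the test. Of the 29 Mrps genes, 15 had an unadjusted p under 0.05 in the authors' edgeR likelihood ratio test, all higher. That is 51.7%, against 9.04% of all genes higher at that level. Without Mrps18a, Mrps30 and Mrps36, which are placed outside the small subunit, it was 12 of 26 genes (46.2%). All 29 Mrps genes lay above 0, against 48.0% of all genes. Mrps18b and Mrps11 had the largest fold changes, 0.74 and 0.70 in the authors' deposited table (adjusted p = 0.10 and 0.0778). Implied expression of Mrps18b was 80.7 CPM in Pink1-/- and 48.5 CPM in WT muscle, and that of Mrps11 was 18.7 CPM in Pink1-/- and 11.5 CPM in WT muscle. Mrps11 sits on the platform of the small subunit. The platform proteins Mrps21 (0.35), Mrps18c (0.36) and Mrps6 (0.19) were lower in fold change in the authors' deposited table (adjusted p = 0.376, 0.442 and 0.763).

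Genes for the decoding region and the path of the messenger RNA lay close to the median. Mrps12, which governs decoding accuracy, stood at 0.57, Mrps5 at 0.61, Mrps2 at 0.42 and Mrps24 at 0.48 in the authors' deposited table. Of these Mrps5 had the smallest adjusted p, 0.102. In the head of the subunit, Mrps9 stood at 0.58, Mrps7 at 0.46, Mrps14 at 0.42 and Mrps10 at 0.36 in the authors' deposited table. Body proteins Mrps15 (0.52), Mrps16 (0.45) and Mrps17 (0.42) were similar in the authors' deposited table; Mrps16 is mutated in a fatal neonatal lactic acidosis. Mrps28 stood at 0.58 in the authors' deposited table (adjusted p = 0.201).

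Mitochondria-specific small-subunit genes ran from 0.16 to 0.74, the highest being Mrps18b, which was counted here although its paralog Mrps18c was counted as conserved. Mrps27, a protein with pentatricopeptide repeats, stood at 0.56, and Mrps23 at 0.55 (adjusted p = 0.203 and 0.149) in the authors' deposited table. Mrps34 (0.54) and Mrps22 (0.52), both mutated in inherited mitochondrial disease, were near them in the authors' deposited table. Mrps25 (0.41), Mrps35 (0.39) and Mrps31 (0.38) lay a little lower in the authors' deposited table. The lowest values of the small subunit belonged to Mrps33 (0.16), Mrps26 (0.18) and Mrps6 (0.19) in the authors' deposited table. All of these 3 turned below 0 under scaling to equal summed CPM, to -0.05, -0.03 and -0.02.

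Some members are named for one subunit and placed elsewhere. The paralogs Mrps18a, Mrps18b and Mrps18c share an ancestor, but Mrps18a is a protein of the large subunit and the other two belong to the small one. In the authors' deposited table Mrps18a stood at 0.53, with an adjusted p of 0.221, between its paralogs at 0.74 and 0.36. Their implied 95% intervals overlapped. Mrps30, also a large-subunit protein despite its name, stood at 0.54 (adjusted p = 0.200) in the authors' deposited table. Mrps36 is known as a component of the oxoglutarate dehydrogenase complex of the citric acid cycle rather than of the ribosome. Its log2 fold change of 0.60 in the authors' deposited table (adjusted p = 0.102) lay within the range of the others.

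The median was 0.47 over 42 Mrpl genes and 0.48 over 29 Mrps genes, a difference of -0.01 on the log2 scale. Moving Mrps18a and Mrps30 to the large subunit and leaving out Mrps36 gave medians of 0.48 over 44 large-subunit genes and 0.45 over 26 small-subunit genes. Fold changes were more spread in the Mrpl genes, with an SD over genes of 0.21, than in the Mrps genes, with 0.14. The Mrpl genes include Mrpl1 at 0.86, with an implied SE of 1.10, and Mrpl52 at -0.35. Quartiles were 0.35 and 0.61 for the Mrpl genes and 0.39 and 0.56 for the Mrps genes. Genes share one fit on the same rats and are not replicates, so these differences were not tested. Implied expression summed to 1367 CPM in Pink1-/- and 969 CPM in WT muscle over the Mrpl genes, and to 857 CPM in Pink1-/- and 604 CPM in WT muscle over the Mrps genes. All 3 calls were of large-subunit genes, 7.14% of the Mrpl genes, against 1.37% of all genes called higher. At an unadjusted p under 0.05 in the likelihood ratio test, 21 of 42 Mrpl genes and 15 of 29 Mrps genes were higher. By place in the particle, 23 of 44 large-subunit genes and 12 of 26 small-subunit genes were. Over all genes the share higher at that level was 9.04%.

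Proteins with a bacterial relative had a median of 0.46 over 40 genes, and mitochondria-specific ones 0.52 over 30 genes. In this split Mrps18a and Mrps18b were counted as mitochondria-specific, although they share an ancestor with Mrps18c, which was counted as conserved. By subunit, the medians were 0.47 and 0.53 for the conserved and specific genes of the large subunit, and 0.45 and 0.46 for those of the small one. All 40 conserved genes and 29 of the 30 specific genes were above 0. The SD of the log2 fold change over the 71 members was 0.19, below the median implied SE of a single member.

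**Figure D2:**
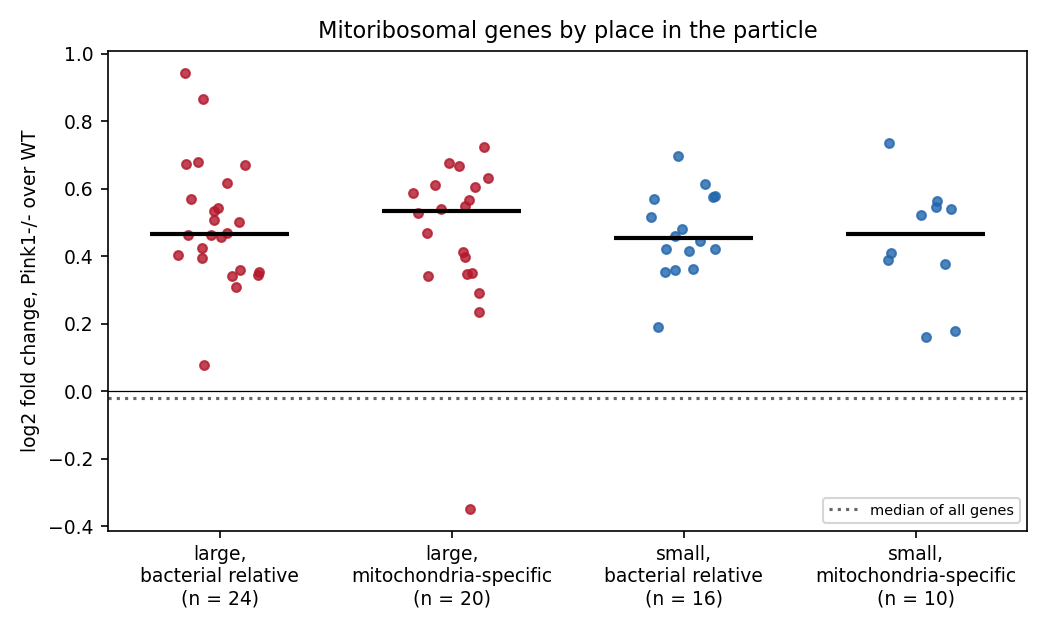
Log2 fold change of Pink1-/- over WT by place in the mitoribosome and presence of a bacterial relative; each point is 1 gene, bars are medians over genes and the dotted line is the median of all genes (-0.02). The medians of the 4 classes lie between 0.45 and 0.53. Mrps18a and Mrps30 are drawn in the large subunit and Mrps36 is left out. Mrps18a and Mrps18b are drawn as mitochondria-specific although their paralog Mrps18c is drawn as conserved.

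The largest implied SEs belonged to members with few reads. Above a mean log2 CPM of 4, which 50 members reached, implied SEs ran from 0.20 to 0.27. There they did not simply fall with reads, as Mrps21 had 0.20 at a mean log2 CPM of 4.84 and Mrpl40 had 0.27 at 5.11. The largest outside Mrpl1 were 0.35 for Mrps10, 0.34 for Mrpl55 and 0.33 for Mrpl39, at means of 6.76, 5.57 and 5.75 CPM. At these errors a change of the size of the median, 1.38-fold, is about 2 SEs for a typical member, and 68 of the 71 were not separated from 0 at an adjusted p under 0.05. CPM are not divided by transcript length and are given as read support, not as an order of expression between genes.

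**Figure D3:**
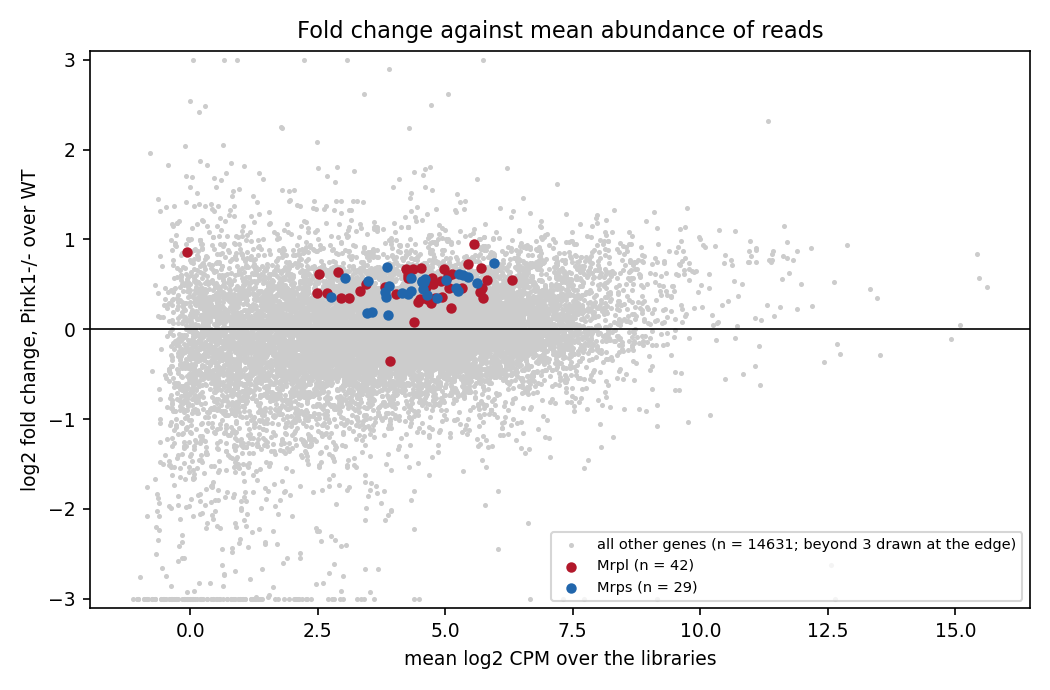
Log2 fold change of Pink1-/- over WT against mean log2 CPM for Mrpl genes (red), Mrps genes (blue) and the other genes (grey, values beyond 3 in either direction drawn at the edge). Members lie in a band above 0 between mean log2 CPM of 2.48 and 6.31, apart from Mrpl52 below 0 and Mrpl1 at -0.07 on the horizontal axis.

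Further mitoribosomal genes were listed under symbols that the naming rule does not take. By their descriptions, 5 rows belong here. They are LOC100359687, given above, mrpl11 at 0.52, mrpl24 at 0.42, mrpl9 at 0.41 and NEWGENE_1308196, described as L30, at 0.38 in the authors' deposited table. All were above 0 and none passed the test, with 2 of them at an unadjusted p under 0.05 in the edgeR likelihood ratio test. Mrpl33, Mrpl36 and Mrpl53 were not analysed here, nor were the mitochondrial ribosomal RNAs. Another 5 proteins of the particle carry unrelated names. In the authors' deposited table Gadd45gip1, at the tunnel exit, stood at 0.68 and Chchd1, of the small subunit, at 0.63, with adjusted p-values of 0.110 and 0.117. Ptcd3, a pentatricopeptide repeat protein, stood at 0.35 and Dap3, a GTP-binding protein of the small subunit, at 0.23 in the authors' deposited table. Aurkaip1, also of the small subunit, stood at -0.02 in the authors' deposited table (adjusted p = 0.976), with an implied SE of 0.20.

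Genes that build and serve the mitoribosome were described in the same way, and their difference from the members was not tested. Of 27 measured assembly factors 1 rose (3.70%), against 1.37% of all genes, and 26 lay above 0, the median being 0.48. The gene that rose was Trub2, a pseudouridine synthase relative, at 0.88 (adjusted p = 0.0117) in the authors' deposited table. Eral1, the chaperone of the small ribosomal RNA, stood at 0.71 (adjusted p = 0.0624) in the authors' deposited table. Mterf3 was the assembly gene below 0, at -0.03 in the authors' deposited table. Of 17 translation factors and related proteins, Oxa1l, Lrpprc, Slirp and Pde12 among them, 14 were above 0, with a median of 0.46. None was called by the likelihood ratio test. At an unadjusted p under 0.05, 8 (47.1%) were higher, against 9.04% of all genes. The smallest p among them belonged to Oxa1l, the insertase that takes new proteins into the inner membrane, at 0.64, and Tufm, the elongation factor that brings transfer RNA, at 0.64 in the authors' deposited table. Their adjusted p-values were 0.0789 and 0.103. Of 21 mitochondrial tRNA synthetases and related enzymes, 20 were above 0, with a median of 0.38. The 1 that rose (4.76%, against 1.37% of all genes) was Sars2, the seryl-tRNA synthetase, at 1.18 (adjusted p = 0.0415) in the authors' deposited table. Fars2, the phenylalanyl-tRNA synthetase, stood at 0.55 with an adjusted p of 0.169. Neither Trub2 nor Sars2 was called under scaling to equal summed CPM.

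The 16 genes for upkeep and transcription of mitochondrial DNA and for processing and decay of its RNA had a median of 0.38, with 15 above 0. None was called by the likelihood ratio test. At an unadjusted p under 0.05, 4 (25%) were higher, against 9.04% of all genes. The smallest p among them belonged to Hsd17b10, a subunit of mitochondrial RNase P, at 0.48 in the authors' deposited table. Elac2, which trims the other end of transfer RNAs, followed at 0.49 in the authors' deposited table. The 13 protein-coding genes of mitochondrial DNA, which the mitoribosome serves, had a median of 0.27, with 12 above 0. None of these was called, none reached an unadjusted p under 0.05, and their median implied SE was 0.49, against 0.24 for the members. Nuclear genes for subunits of the respiratory chain had a median of 0.66 over 73 genes, all above 0. Of these 11 rose (15.1%), against 1.37% of all genes. Under scaling to equal summed CPM 1 did, Ndufs7 of complex I, against 0.429% of all genes. The smallest p belonged to Ndufs7 (1.11), Ndufs8 (0.93) and Ndufa11 (0.87) of complex I, Atp5mc1 (0.99) of ATP synthase, Uqcr11 (0.83) of complex III and Cox6a2 (1.09), the muscle form of a complex IV subunit, in the authors' deposited table. The 67 cytosolic ribosomal proteins measured had a median of -0.04, with 29 above 0 and none called by the likelihood ratio test. In this list 1 gene, Rpl30, had an unadjusted p under 0.05, at -0.63 (adjusted p = 0.0628) in the authors' deposited table. Rpl30 was, under scaling to equal summed CPM, called lower, with an adjusted p of 0.00404. Mitochondrial and cytosolic ribosomal proteins thus had medians of 0.47 and -0.04 in the same comparison, and the gap between them is the same under any scaling of the libraries.

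**Figure D4:**
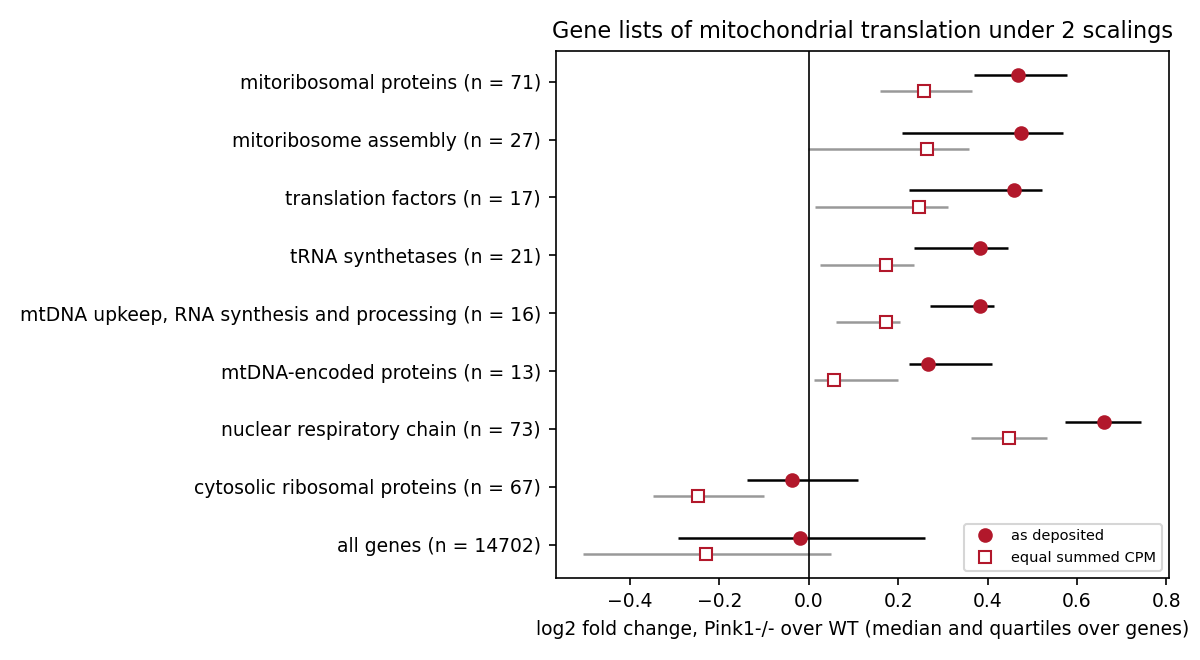
Median (symbols) and quartiles over genes (lines) of log2 fold changes, Pink1-/- over WT, for mitochondrial ribosomal proteins, related gene lists and all genes, as deposited (filled) and scaled to equal summed CPM (open). As deposited the members' median is 0.47, cytosolic ribosomal proteins are at -0.04 and all genes at -0.02; with equal sums they are at 0.26, -0.25 and -0.23.

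The labelled tissue was checked against its markers. All 10 skeletal muscle markers were above 0, with a median of 0.87 and implied sums of 86150 CPM in Pink1-/- and 48180 CPM in WT muscle. None was called by the likelihood ratio test. At an unadjusted p under 0.05, 3 were higher, against 9.04% of all genes. Myh4 alone, with a mean of 43864.5 CPM, made up most of the muscle sums. It stood at 0.84 in the authors' deposited table (adjusted p = 0.605 in the likelihood ratio test). Markers of nerve and Schwann cells (7 of 7), squamous epithelium (6 of 6) and fibroblasts (5 of 5) were below 0, with medians of -1.42, -1.32 and -0.55. Of them 5, 2 and 0 fell, against 1.68% of all genes called lower. Their implied sums were 184, 275 and 2129 CPM in Pink1-/- muscle, against 371, 681 and 2938 CPM in WT muscle. Among gland and airway markers 3 of 6 were above 0 and 2 fell, and the sums were 7515 CPM in Pink1-/- and 14523 CPM in WT muscle. The largest mean in these sums was that of Muc5b, 6406 CPM, at -4.08 (adjusted p = 0.150 in the likelihood ratio test), whereas Bpifa1 stood at 2.32. All 4 macrophage markers were above 0, with a median of 0.18. Of the thyroid markers Tg was measured, at an implied 49.5 CPM in Pink1-/- and 8.76 CPM in WT muscle, and rose by 2.50 in the authors' deposited table. Pax8, Trp63 and Col1a2 were not analysed here. None of these markers was at 0 in the table. The part of such differences in the values of the mitochondrial ribosomal proteins was not tested.

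Promoter sequence was examined for what the members share. RefSeq start windows on the rat build GRCr8, from 250 bases before to 50 after each start, were matched by symbol for 56 of the 71 genes. On both strands 6 motifs were searched, and no matches of different motifs overlapped in these windows. The YY1 motif, whose letters are the capitals of the windows shown next, was present in 7 of the 56 members (12.5%), against 1.85% of 10573 tested genes with a window and 0.809% of all 27457 genes with one. YY1 is a zinc finger factor with sites near the start of many housekeeping genes. The ETS motif CCGGAAG, of the family that holds the nuclear respiratory factor GABPA, was present in 17 members (30.4%), against 16.6% of tested genes and 9.63% of all genes. The NRF1 consensus, for the other nuclear respiratory factor, was present in 8 members (14.3%), against 9.53% of tested genes and 4.82% of all genes. The GC box GGGCGG was found in 27 members (48.2%) and in 62.2% of tested genes and 36.0% of all genes. TATAAA, the TATA box, was found in 8 members (14.3%), in 7.88% of tested genes and in 15.3% of all genes. The estrogen-related receptor motif TCAAGGTCA was found in none of the 56 windows, in 0.265% of tested genes and in 0.441% of all genes. These motifs were chosen with the fold changes known, and a match is a description of letters, not of binding.

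The windows with the YY1 motif are shown because its share had the largest ratio to that of tested genes among the motifs searched. They are 30 bases long, 5′ to 3′ on the strand of the gene, with the motif in capitals. In all 7 the motif was on the gene's own strand and began between base 1 and base 31 after the start.
Mrpl37, chr5:127074941-127074970, minus strand: gcccgggcaAAGATGGCGGCgtccaggtag
Mrpl46, chr1:142116986-142117015, minus strand: gaagacggaAAGATGGCGGCgcccataggg
Mrpl50, chr5:68668041-68668070, minus strand: agcttgtcgAAGATGGCGGCgctgtgtgtg
Mrps10, chr9:21122404-21122433, minus strand: tcagggcaccAAGATGGCGGCgcgcgcagc
Mrps18a, chr9:22367360-22367389, minus strand: tgtgttcccAAGATGGCGGCcctcagggct
Mrps27, chr2:32474224-32474253, plus strand: gtacgctccAAGATGGCGGCccccatggtg
Mrps30, chr2:52195866-52195895, minus strand: cggaggacaAAGATGGCGGCtgccaggtat
Members with this motif had a median log2 fold change of 0.56 and those without it 0.42, and the gap was not tested. Members with and without the NRF1 motif had medians of 0.48 and 0.45, and with and without the ETS motif 0.40 and 0.47.

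Upstream sequences of the extremes, Mrpl12 with the largest fold change and Mrpl52 with the lowest, are shown for the 200 bases before the start, with matches to the searched motifs in capitals. A GC box is marked in Mrpl12 and an ETS motif in Mrpl52, both on the opposite strand.
Mrpl12, chr10:106256546-106256745, plus strand: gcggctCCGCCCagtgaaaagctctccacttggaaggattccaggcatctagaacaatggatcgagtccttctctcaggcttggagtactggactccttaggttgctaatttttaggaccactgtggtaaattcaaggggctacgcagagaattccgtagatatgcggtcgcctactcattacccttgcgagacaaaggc
Mrpl52, chr15:31852736-31852935, plus strand: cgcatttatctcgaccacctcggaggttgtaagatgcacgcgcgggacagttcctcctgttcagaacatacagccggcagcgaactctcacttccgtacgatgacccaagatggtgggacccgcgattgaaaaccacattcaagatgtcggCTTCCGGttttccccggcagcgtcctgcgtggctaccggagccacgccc

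Several members start close to a gene read in the opposite direction. Within 1000 bases such a neighbour was found for 17 of the 56 members, with the starts 44 to 996 bases apart. Mrpl46 and Mrps11 are each other's neighbour, with starts 234 bases apart, and code for different subunits. Their log2 fold changes were 0.57 for Mrpl46 and 0.70 for Mrps11 in the authors' deposited table. The stretch between their starts is shown on the strand of Mrpl46, with a match to the TATA box on the opposite strand in capitals.
Mrpl46 to Mrps11, chr1:142117031-142117263, minus strand: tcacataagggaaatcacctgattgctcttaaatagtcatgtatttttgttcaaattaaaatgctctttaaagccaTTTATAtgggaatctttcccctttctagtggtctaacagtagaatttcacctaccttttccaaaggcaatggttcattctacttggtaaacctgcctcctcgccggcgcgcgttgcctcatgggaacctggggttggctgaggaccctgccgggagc
Among neighbours that are not members, 12 were measured, with 10 above 0 and a median of 0.20. Over all genes 48.0% were above 0 and the median was -0.02. None of the 12 neighbours was called by the likelihood ratio test, against 3.05% of all genes. At an unadjusted p under 0.05 in that test 1, Ndufb5, was higher, against 9.04% of all genes. The 12 members beside these neighbours had a median of 0.44, and in 11 pairs the member had the larger fold change. The exception was Mrpl47 at 0.57, beside Ndufb5, a subunit of complex I, at 0.73 in the authors' deposited table. Mrps18b at 0.74 stood beside Ppp1r10, a phosphatase regulator, at -0.26, and Mrps18c at 0.36 beside Helq, a DNA helicase, at -0.33 in the authors' deposited table. The sources do not say whether counting used strand, so it is unknown whether reads of genes that overlap were kept apart. The starts used here lie apart in each pair, but the annotation used for counting is not given. The gap between members and neighbours was not tested.

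**Figure D5:**
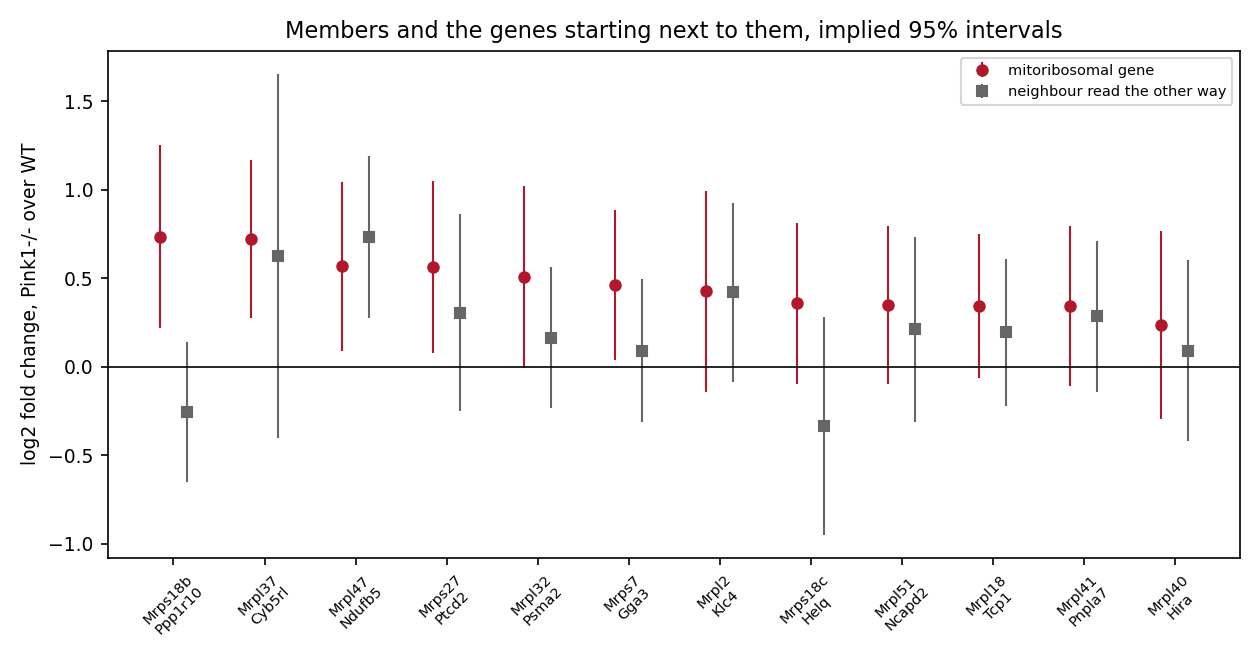
Log2 fold change of Pink1-/- over WT for 12 mitochondrial ribosomal protein genes (red circles) and the measured gene that starts within 1000 bases on the other strand (grey squares), with implied 95% intervals. The member lies above its neighbour in 11 pairs, and the intervals of a pair overlap except for Mrps18b and Ppp1r10.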

How the data were processed

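RNA sequencing libraries of thyroarytenoid muscle came from 3 Pink1-/- and 4 WT rats. Per the submitters' processing notes, edgeR 3.9 and RSEM were used by the authors, with no role given; the aligner, build, annotation, filter and scaling are not given in the sources used. The deposited table holds, per the file headers, log2 fold changes of Pink1-/- over WT, mean log2 CPM, a likelihood ratio score, p-values and adjusted p-values for 14702 genes. No counts or values per library were used, so depth is unknown and the planned tests on counts and the removal of single libraries were not run. Calls were made at an adjusted p under 0.05. From the table, implied SEs (fold change over the square root of the likelihood ratio), 95% intervals and implied CPM were computed with Python 3.11.15, pandas 2.3.3 and SciPy 1.17.1, after tests on simulated data. The p-values measure the spread between these rats as the authors fitted it. The members, gene lists, motifs and tests were chosen with earlier results of these data known. Named genes were those called, those with the smallest p and most extreme fold changes or read support in each family, paralogs, misnamed members and, in each other list, those called and the 2 with the smallest p; the other members were added for completeness. Alternatives were scaling to equal summed CPM, a minimum mean log2 CPM of 1, deflated likelihood ratios, other thresholds and other member sets. All p-values under equal sums were approximated from the square of the shifted fold change over its implied SE, without a refit.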

Additional observations from a re-analysis of the deposited data

How the results depend on the processing

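The count of called members depended on the setting. Against 3 as deposited, it was 0 under scaling to equal summed CPM, 0 when likelihood ratios were divided by 1.956 (their observed median over that of a chi-square), 5 at an adjusted p under 0.1 (background 5.26% of all genes) and 36 at an unadjusted p under 0.05. At an unadjusted p under 0.05, 6 members were higher and 1 lower with equal sums, against 3.05% and 19.3% of all genes, and 10 were past the threshold with divided likelihood ratios, against 5.69% of all genes. At an adjusted p under 0.05 the backgrounds were 0.429% higher and 3.86% lower with equal sums, and 0.0952% with divided likelihood ratios. Leaving out genes under a mean log2 CPM of 1 gave 2. The fold change reversed under equal sums in Mrpl20 (-0.13), Mrps26 (-0.031), Mrps33 (-0.051) and Mrps6 (-0.021), as the shift of 0.21 exceeds their values. The median of the members kept its direction under every alternative run, from 0.26 to 0.47, and 66 to 75 members were above 0; the higher figure adds the 5 rows found by description, an alternative chosen after seeing the data, as was leaving out the 22 members with a named pseudogene (median 0.47). The difference between Mrpl and Mrps medians stayed between -0.01 and 0.03. No replicate could be left out, and no paired analysis was possible because no values per library were used and the numbers in the titles are not shared between groups.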
